A study of Mus musculus with 321 samples.

Results

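The mouse Myc family (Myc, Mycn and Mycl) and the D cyclins (Ccnd1, Ccnd2 and Ccnd3) are 6 of the 21887 protein-coding genes of the gene table. Their loci were taken as the gene body and 100 kb on each side in build GRCm38. These windows held 91 of the 93162 open regions obtained by merging the peaks of all 12 ATAC-seq libraries. ATAC-seq maps open chromatin through the cutting of exposed DNA by the Tn5 transposase. The first comparison set 2 libraries of Tcf-1 knockout (KO) thymocytes, labelled TCF-1-/- deltaVII, against 2 of wild-type (WT) thymocytes, labelled C56BL/6. Both kinds of library came from CD4+CD8+ double-positive (DP) T cells purified by FACS in vivo, and the labels give no age or sex. The second set 4 libraries of NIH3T3 fibroblasts carrying a retrovirus that expresses Tcf-1 (Tcf-1 RV) against 4 carrying an empty retrovirus (Empty RV). NIH3T3 is an established line of NIH/Swiss mouse embryonic fibroblasts, used here at passages 8 to 12, and no source used here names the promoter of the retrovirus. H3K27me3 and H3K9me3 were mapped in 2 libraries each of NIH3T3 cells without Tcf-1, and Tcf-1 binding came from 1 pooled list of summits from Tcf-1 RV cells. The name of that list carries a day 2 tag, whereas 2 ATAC-seq libraries of each retrovirus carry that tag and the other 2 a day 4 tag. The design asks how Tcf-1 bears on open chromatin in developing T cells and, expressed ectopically, in a fibroblast.

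Myc, Mycn and Mycl are basic helix-loop-helix transcription factors that pair with Max, bind E-box sequences and drive growth and ribosome production. The D cyclins join Cdk4 or Cdk6 to phosphorylate the retinoblastoma protein, which releases E2F factors and lets a cell leave G1. Tcf-1, encoded by Tcf7, belongs to the TCF/LEF family that acts with β-catenin downstream of Wnt, and Myc and Ccnd1 are textbook targets of that family. In the thymus, cyclin D3 is known for the burst of division that precedes the DP stage, after which most DP cells rest.

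The promoter sequences below are all those available for the members. RefSeq promoter entries for GRCm38.p6 matched 3 of the 6 members, Mycn, Mycl and Ccnd3, the last with a start at the gene's lower end and another inside the gene. Myc, Ccnd1 and Ccnd2 had no entry. Each sequence gives the 250 bases before the start, 5′ to 3′ on the coding strand, and capitals mark the words found.
Mycn, minus strand, chr12:12941837-12942086: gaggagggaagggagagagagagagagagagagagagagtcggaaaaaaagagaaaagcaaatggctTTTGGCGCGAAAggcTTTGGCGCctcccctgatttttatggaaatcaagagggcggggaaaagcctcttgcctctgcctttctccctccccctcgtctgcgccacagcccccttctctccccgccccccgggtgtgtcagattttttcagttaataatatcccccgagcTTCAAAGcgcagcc
Mycl, plus strand, chr4:122995681-122995930: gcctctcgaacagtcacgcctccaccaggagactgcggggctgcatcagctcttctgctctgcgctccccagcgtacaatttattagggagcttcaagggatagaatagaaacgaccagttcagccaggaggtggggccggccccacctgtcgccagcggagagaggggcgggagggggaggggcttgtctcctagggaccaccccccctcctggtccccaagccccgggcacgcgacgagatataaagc
Ccnd3, outer start, plus strand, chr17:47504801-47505050: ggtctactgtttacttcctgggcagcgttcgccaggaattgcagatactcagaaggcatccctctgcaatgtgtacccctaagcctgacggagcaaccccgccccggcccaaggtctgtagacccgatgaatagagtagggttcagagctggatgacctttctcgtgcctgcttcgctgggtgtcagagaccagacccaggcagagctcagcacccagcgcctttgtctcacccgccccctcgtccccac
Ccnd3, inner start, plus strand, chr17:47593217-47593466: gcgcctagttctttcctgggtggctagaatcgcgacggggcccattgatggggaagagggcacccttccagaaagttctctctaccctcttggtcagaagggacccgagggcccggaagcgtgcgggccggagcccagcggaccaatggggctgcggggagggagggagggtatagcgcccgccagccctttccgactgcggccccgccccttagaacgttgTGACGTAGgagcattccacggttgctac
Words were searched on both strands. The TCF/LEF word was CTTTG followed by the letters AT or TT or AA or TA, and 14.8% of all 32851 promoter entries held at least 1 of these. The E-box CACGTG was in 6.02%. The E2F words TTTGGCGC, TTTCCCGC, TTTCGCGC and TTTGGCGG were in 1.96%, and the CRE words TGACGTCA, TGACGTAA, TGACGTAG and TGACGTGG in 2.86%. Counted from the first base printed, the Mycn promoter held TTTGGCGC at bases 68 to 75 and again at 83 to 90. The reverse-strand word GCGCGAAA, at bases 72 to 79, overlaps the first of these. It also held a reverse-strand TCF/LEF word, TTCAAAG, at 14 to 8 bases before the start. The inner Ccnd3 promoter held the CRE word TGACGTAG at 28 to 21 bases before its start. None of the words searched was in the Mycl or the outer Ccnd3 window. These promoters differed in how many libraries had a peak over them. A peak overlapped the Mycl promoter and the inner Ccnd3 promoter in 12 of 12 libraries, the Mycn promoter in 2 and the outer Ccnd3 promoter in 0. GC content was 63.6% at Mycl, 64.8% at inner Ccnd3, 54.8% at Mycn and 59.6% at outer Ccnd3, against a median of 52.4% of all entries.

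The files give peak positions and no read depth, so a peak either is listed or is not, and a small peak can be missed in a shallow library. The lists held 11171 and 12209 peaks in KO, against 23249 and 30985 in WT, and 47623, 43527, 36583 and 62639 in Tcf-1 RV replicates 1 to 4, against 22778, 34601, 46819 and 58026 in Empty RV. At Tcf7, the gene targeted in KO and carried by the retrovirus, 1 peak lay in the gene body in each KO library, against 2 in each WT library, and 5 to 8 in Tcf-1 RV, against 1 to 5 in Empty RV. Neither count measures Tcf-1 protein, and reads of the retroviral insert would fall on Tcf7 exons. Of 13 DP thymocyte markers, 1 and 6 had a peak within 1 kb of a gene end in KO replicates 1 and 2, against 9 and 12 in WT. Cd4, Cd8a, Cd3e and Lck had none in either KO library and one in both WT libraries. Of 10 fibroblast markers, 0 had such a peak in either KO library, against 1 (Pdgfrb) and 4 (Pdgfrb, Col1a1, Fn1 and Thy1) in WT. The B cell markers gave 0 of 6 in KO, against 1 (Ebf1) in each WT library, the myeloid ones 0 of 6 in all 4, the NK and innate lymphoid ones 1 and 2 of 6, against 2 and 3. The erythroid ones gave 1 and 0 of 4 in KO, against 0 and 1 in WT, and the thymic epithelial ones 1 and 1 of 5, against 0 and 1. In NIH3T3, 8 to 10 of 10 fibroblast markers had a peak in Tcf-1 RV, against 4 to 10 in Empty RV, where replicate 1, the shortest list, had the 4. Losses and peak numbers in DP are also given below with lists of equal length, and the part that the makeup of the sorted cells plays was not tested.

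**Figure D1:**
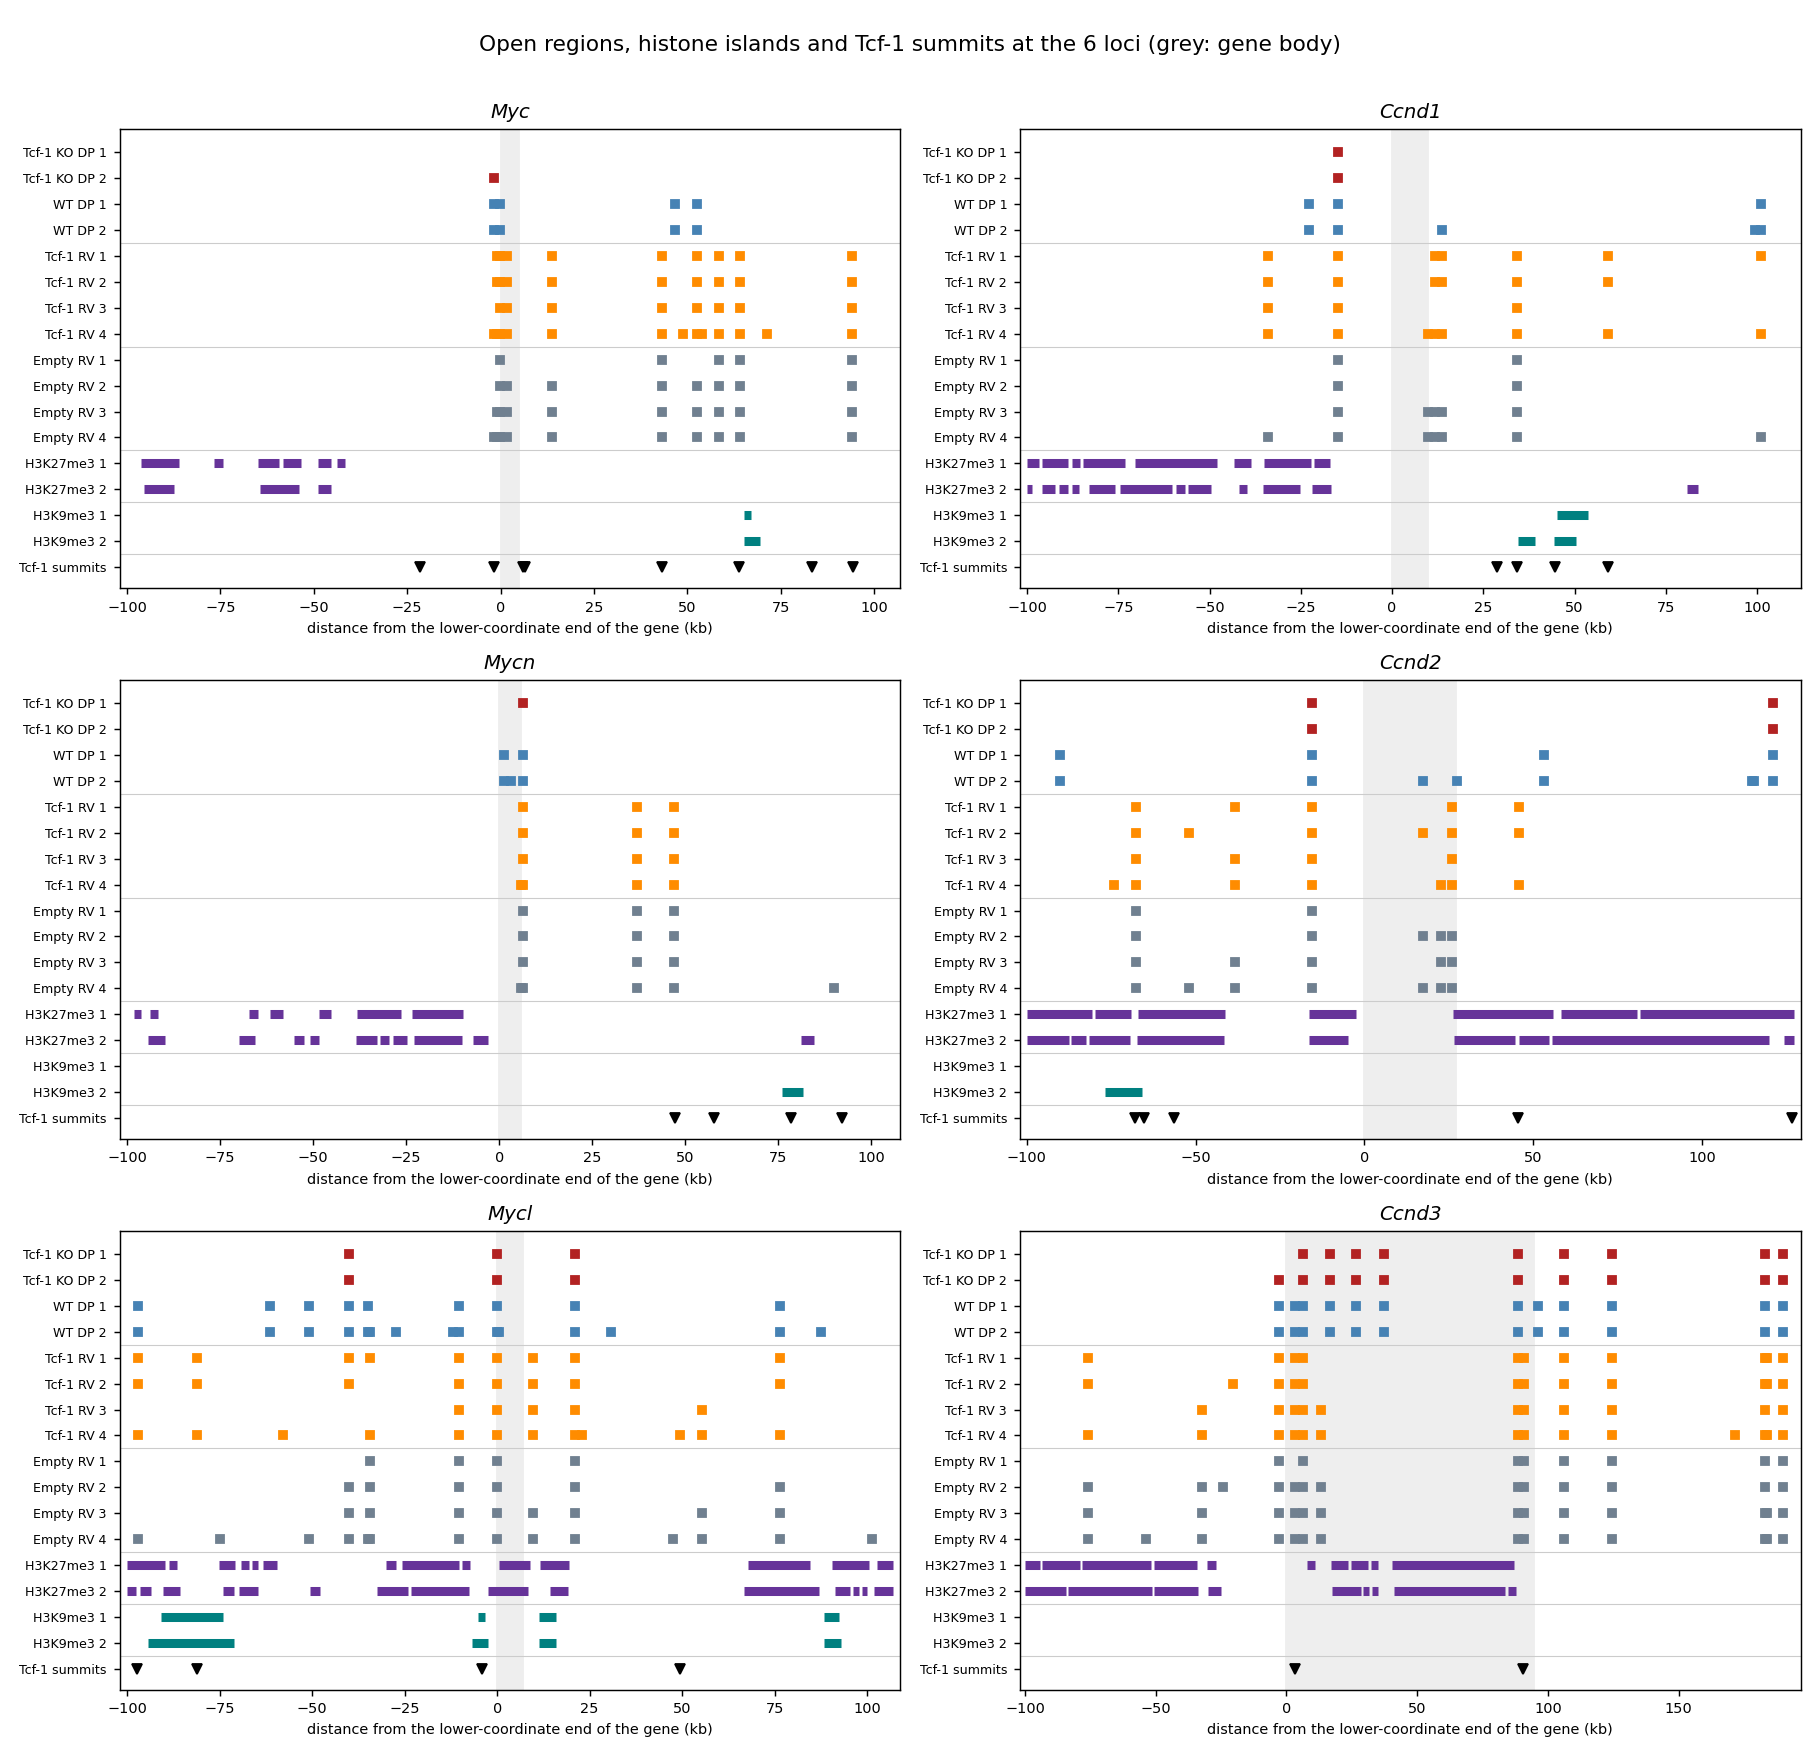
Maps of the 6 loci, with the distance from the lower-coordinate end of each gene in kb on the horizontal axis and 1 row per library. Squares mark the centre of each merged region in which that library had a peak, bars are H3K27me3 and H3K9me3 islands, triangles are Tcf-1 summits and the grey band is the gene body. Myc has 1 square in the KO rows, whereas Ccnd3 has 9 in KO replicate 1 and 10 in KO replicate 2.

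Around the 6 genes, DP thymocytes lacking Tcf-1 had no peak at 16 of the 34 regions that both WT libraries held, or 47.1%. Such regions, called lost here, made up 45.7% of the 21952 regions of both WT libraries across the genome, so the members as a set lay close to the background. A further 15 regions were kept in both KO libraries and 3 were held by 1 KO library. Fewer cells with an open site and a less open site in each cell cannot be told apart in such bulk lists. Myc lost 3 of 4 regions, Mycl 6 of 9, Ccnd1 2 of 3, Ccnd2 2 of 4, Mycn 1 of 2 and Ccnd3 2 of 12. Where both WT libraries held a region, 76.3% of gene windows lost at least 1, and all 6 members did. No region was gained, that is, held by both KO and neither WT library, against 0.478% of all regions of both KO libraries. Without WT replicate 1 the lost regions numbered 29, and 18418 genome-wide, since the longer WT list alone then set the rule. Without KO replicate 1, the library with 1 of 13 DP markers, they numbered 17, and 10907 genome-wide. With the 11171 widest peaks of every library, 1 region was lost and 1 gained, and genome-wide 1361 were lost and 955 gained. Of the 16 lost regions, 13 were then in neither WT list, 2 in 1 WT list and 1 in both, so most of the members' loss lay at narrow WT peaks. This split was not counted over all lost regions, which numbered 10032 genome-wide with the full lists and 1361 under this setting.

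**Figure D2:**
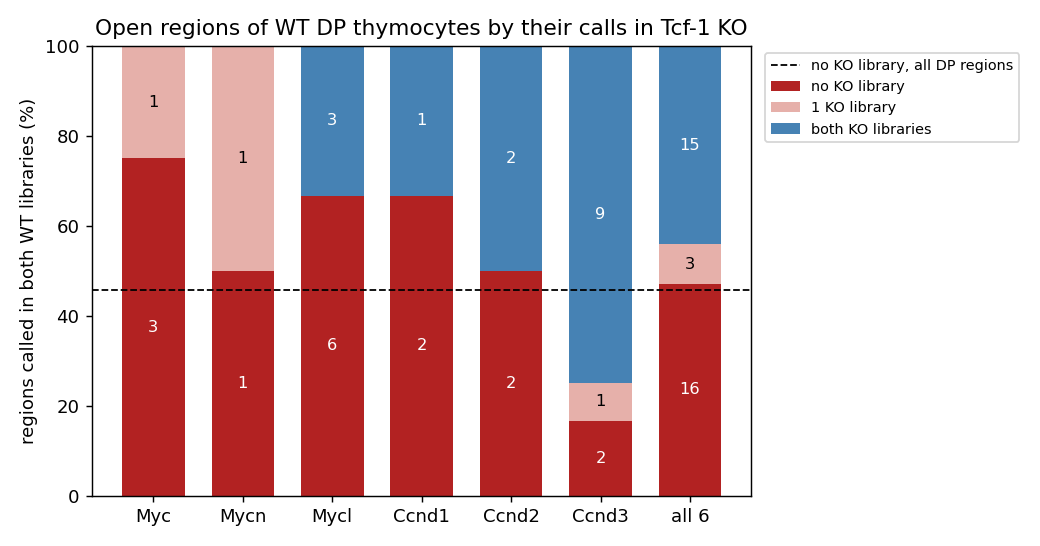
Regions called in both WT libraries at each locus, as a percentage of them on the vertical axis, split by whether no, 1 or both KO libraries held them, with the number of regions written in each bar. The dashed line is the share held by no KO library among all DP regions, 45.7%; Myc stands at 75% and Ccnd3 at 16.7%.

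Loss at the members fell mostly away from gene ends, as it did across the genome. A region was counted as a gene-end region if a protein-coding gene began or ended in it or no more than 1 kb away, and the others are called distal. Of the members' gene-end regions 2 of 12 were lost and 8 kept, against 16.8% lost of all gene-end regions. Of their distal regions 14 of 22 were lost and 7 kept, against 65.9% lost of all distal regions. The pair of lost gene-end regions lay at the start of Myc and at the upper end of Mfsd2a, a lipid transporter gene beside Mycl.

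Myc, the founding member of the family, kept no region in both KO libraries. Its start region, chr15:61984836-61985796, had no peak in either KO library, against peaks of 0.208 and 0.680 kb in WT. Widths are summed where a library had more than 1 peak in a region, as in 17 of the 455 cases of a member region with a peak in a library. All 8 NIH3T3 libraries held it, with widths of 0.539 to 0.961 kb in Tcf-1 RV and 0.375 to 0.924 kb in Empty RV. Regions held by both WT and all 8 NIH3T3 libraries are here called shared, and 11.8% of all 7563 shared regions had no peak in either KO library. Among the members 2 of 14 shared regions did, the Myc start and a site near Mycl. The nearest other Myc region, chr15:61983208-61983711 at 1630 bp below the gene, had no peak in KO replicate 1 and one of 0.200 kb in KO replicate 2, against 0.504 and 0.314 kb in WT. It carried a Tcf-1 summit in the fibroblast list.

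The other regions lost at Myc lay on the side of Pvt1, a long noncoding RNA gene that neighbours Myc and is often co-amplified with it in tumours. The region at the start of Pvt1, chr15:62037746-62038299, had no peak in either KO library, against 0.442 and 0.457 kb in WT. It was the single lost region of the 6 loci that remained lost when lists of equal length were compared. A region between the genes, chr15:62031895-62032291 at 41534 bp above Myc, had no peak in KO, against 0.321 and 0.397 kb in WT, and no NIH3T3 library held it. Peaks in the whole Myc window numbered 0 and 1 in KO, against 4 and 4 in WT, and the groups did not overlap.

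Mycn, the family member best known in neural and other embryonic tissue, had few regions in thymocytes. A region inside the gene, chr12:12937194-12937528, had no peak in KO, against 0.335 and 0.262 kb in WT, and no NIH3T3 library held it. The region just outside its promoter, chr12:12942321-12942829 at 485 bp above the gene, had a peak of 0.268 kb in KO replicate 1 and none in KO replicate 2, against 0.277 and 0.285 kb in WT. All 8 NIH3T3 libraries held that region. The 2 peaks over the promoter sequence printed above came from Tcf-1 RV replicate 4 and Empty RV replicate 4, the longest list of each group.

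Mycl, a family member expressed in some epithelial and dendritic cells, lost the most regions of the 6 loci. Its promoter region, chr4:122995416-122995892, was open in all 12 libraries, with 0.274 and 0.309 kb in KO, against 0.359 and 0.368 kb in WT. A region at an end of Trit1, a tRNA-modifying enzyme gene, was also open in all 12, and a region inside Mfsd2a was kept in DP, with 0.310 and 0.267 kb in KO, against 0.552 and 0.821 kb in WT. The upper end of Mfsd2a, chr4:122960465-122960920, had no peak in KO, against 0.306 and 0.456 kb in WT. The other lost regions lay from 10073 to 96859 bp from Mycl and had no peak in KO, against 0.217 to 0.375 kb in WT. The nearest, chr4:122985157-122985515, was held by both WT and all 8 NIH3T3 libraries.

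Ccnd1 encodes cyclin D1, the D cyclin most used by fibroblasts and epithelial cells. No DP library had a peak inside the gene or within 1 kb of its ends. The single kept region lay at an end of the neighbouring gene LTO1, chr7:144914738-144915536, with 0.541 and 0.564 kb in KO, against 0.589 and 0.604 kb in WT, and all 8 NIH3T3 libraries held it. Lost regions lay at chr7:144907035-144907414, with 0.211 and 0.380 kb in WT, and at chr7:145030784-145031233, with 0.281 and 0.361 kb in WT. The first of these was held by no NIH3T3 library.

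Ccnd2 encodes cyclin D2, used by lymphocytes and responsive to cytokines. It kept a region at an end of Tigar, a regulator of glycolysis, with 0.392 and 0.364 kb in KO, against 0.498 and 0.526 kb in WT. A second kept region, chr6:127245834-127246308 at 93646 bp above the gene, had 0.242 and 0.236 kb in KO, against 0.399 and 0.450 kb in WT, and no NIH3T3 library held it. Regions at chr6:127034948-127035177 and chr6:127178063-127178382 were lost, with 0.200 and 0.228 kb in WT at the first and 0.294 and 0.320 kb at the second. Both lay in fibroblast H3K27me3 islands.

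Ccnd3 kept 9 of its 12 WT regions in both KO libraries, the most of the 6 loci. Its window, which holds 11 other protein-coding genes, had 5 of the gene-end regions, all at ends of neighbouring genes. When a peak had to cover 50% of the region to count, the lost regions at Ccnd3 numbered 5 instead of 2, with 20 at the 6 loci and 11382 genome-wide. Inside the gene, 3 regions were thymocyte-only, that is, held by both WT and no NIH3T3 library, and all 3 were kept in KO. At chr17:47521546-47522014 peaks measured 0.328 and 0.224 kb in KO, against 0.393 and 0.448 kb in WT. At chr17:47531350-47531939 they measured 0.488 and 0.417 kb in KO, against 0.568 and 0.572 kb in WT, and at chr17:47541901-47542655 they measured 0.351 and 0.376 kb in KO, against 0.507 and 0.755 kb in WT. No peak of any of the 8 fibroblast libraries overlapped these 3 intragenic regions.

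The inner start of Ccnd3, chr17:47593180-47593829, whose promoter carries the CRE word, was open in all 12 libraries, with 0.202 and 0.206 kb in KO, against 0.358 and 0.364 kb in WT. It is not a gene end and so counts as distal. The lost regions of the locus were chr17:47507993-47508344, with 0.269 and 0.274 kb in WT, and chr17:47601000-47601329, with 0.236 and 0.327 kb in WT. The first holds a Tcf-1 summit. Distal regions at Ccnd3 were lost in 2 of 7 cases, against 65.9% of all distal regions. At Mycl 5 of 6 distal regions were lost, and at Myc and Ccnd2 2 of 3 each. At Ccnd1 2 of 2 were lost and at Mycn 1 of 1.

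Over the 6 loci 11 regions were thymocyte-only. They were a part of the 34 regions of both WT libraries, of which thymocyte-only regions make up 43.8% genome-wide. Both KO libraries held 4 of the 11 and neither held 7, whereas 17.4% of all thymocyte-only regions were held by both KO libraries. The 4 were the 3 inside Ccnd3 and the far region of Ccnd2. In fibroblasts 3 of the 11 lay in H3K27me3 islands, against 15.3% of all thymocyte-only regions, and 0 lay in H3K9me3 islands, against 7.79%. None of the 11 held a summit of the fibroblast Tcf-1 list, against 2.03% of all thymocyte-only regions.

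Kept regions were narrower in KO, at the members as across the genome. Widths were not compared with lists of equal length, and the part that the shorter KO lists play in them was not tested. At 14 of the 15 kept regions both KO peaks were narrower than both WT peaks, and 73.7% of all kept regions showed this. None was wider without overlap, against 0.790% of all kept regions. The median ratio of mean KO to mean WT width was 0.738 at the members and 0.741 over all kept regions. The exception was the region at an end of Gm20517 near Ccnd3, with 0.779 (2 peaks) and 0.458 kb in KO, against 0.722 and 0.811 kb in WT. At Ccnd1 the kept region near LTO1 had a ratio of 0.926, and at Mycl the Mfsd2a region had 0.420.

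The number of peaks per window was lower in KO than in WT without overlap at all 6 loci, as at 68.98% of the 18173 gene windows with a DP peak. It was higher without overlap at 0.396% of them. Mycl had 3 and 3 peaks in KO, against 9 and 15 in WT. Ccnd3 had 10 and 10 in KO, against 13 and 12 in WT. Mycn had 1 and 0 in KO, against 2 and 3 in WT, Ccnd1 1 and 1, against 3 and 5, and Ccnd2 2 and 2, against 4 and 8. The exact two-sided permutation p was 0.333 for each, the smallest that 2 against 2 libraries allow, and 0.480 after Benjamini-Hochberg adjustment over all windows. The mean difference was -3.5 peaks at Myc and -9 at Mycl, against a median of -2.5 over all windows. These differences depended on list length. Per 10000 listed peaks Ccnd3 was higher, with 8.95 and 8.19 in KO, against 5.59 and 3.87 in WT. Myc, Mycl and Ccnd1 were still lower without overlap, and Mycn and Ccnd2 overlapped. On that scale 45.6% of all windows were higher and 20.8% lower in KO without overlap, with a median difference of 0.38 per 10000. With the 11171 widest peaks of every library Myc alone was lower without overlap and Ccnd3 alone higher, against 11.1% of windows lower and 19.9% higher.

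**Figure D3:**
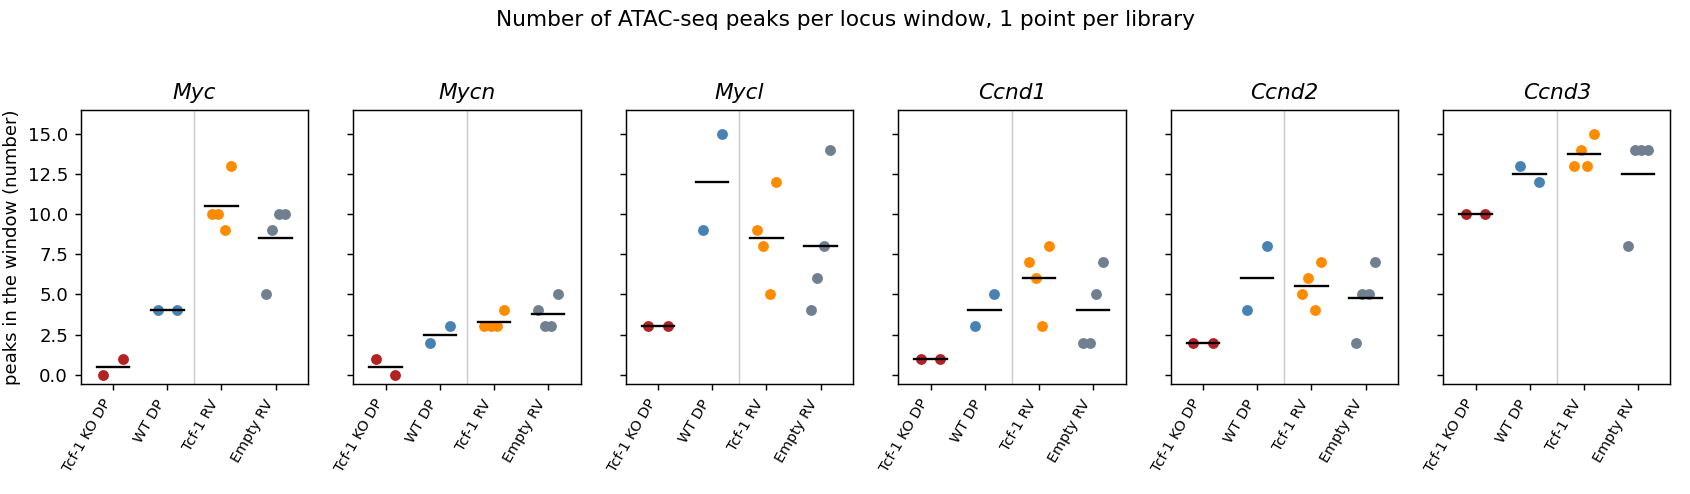
Number of ATAC-seq peaks in each window on the vertical axis, with 1 point per library and a line at the group mean. KO points lie below WT points at all 6 loci as listed, though at Myc alone with lists of equal length, and Tcf-1 RV and Empty RV points overlap at all 6.

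In NIH3T3 fibroblasts the members had 23 regions held by all 8 libraries, and no region passed the rule for gain or loss. A region was called gained if all 4 Tcf-1 RV and no Empty RV library held it, the pattern for which a two-sided Fisher exact test of 4 against 4 libraries gives p 0.0286, and lost in the reverse case. The members had 0 gained and 0 lost of 70 regions, against 1.08% gained and 0.110% lost of all 77882. A gained region lay in 8.43% of all gene windows and a lost one in 0.736%, and in 0 of 6 here. After Benjamini-Hochberg adjustment over all regions the Fisher exact p was 1 for every region, and 925 regions had an unadjusted p under 0.05.

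Opening with Tcf-1 came nearest to the rule at Ccnd2, Ccnd1 and Mycl. Each had 1 region held by Tcf-1 RV replicates 1, 2 and 4 and by no Empty RV library. At Ccnd2, chr6:127170488-127171098 had peaks of 0.437, 0.510, 0 and 0.554 kb in Tcf-1 RV replicates 1 to 4, where 0 stands for no peak, and none in Empty RV. At Ccnd1, chr7:144988799-144989183 had 0.327, 0.356, 0 and 0.383 kb in Tcf-1 RV and none in Empty RV. At Mycl, chr4:122914336-122914710 had 0.343, 0.375, 0 and 0.277 kb in Tcf-1 RV and none in Empty RV. None had a peak in a DP library, and all 3 held a Tcf-1 summit.

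The pattern of 3 against 0 libraries has a Fisher exact p of 0.143 and was found in 3 of 70 member regions, against 2.58% of all regions. The reverse pattern was found in 0 of 70, against 0.467%. Genome-wide, 68.2% of the regions of 3 against 0 held a summit, and 89.7% of them were missing in Tcf-1 RV replicate 3, the shortest Tcf-1 RV list. A region of this pattern with a summit lay in 14.1% of all gene windows and in 3 of 6 here. Without Tcf-1 RV replicate 3 these 3 regions met the rule, with 2643 regions gained genome-wide, and without Empty RV replicate 4 a Ccnd1 region did. When libraries were paired by replicate number, and a gain needed at least 3 of 4 pairs to show it and none the reverse, 4 member regions were gained. They lay at Mycl (1), Ccnd1 (2) and Ccnd2 (1), with 3523 regions gained genome-wide under this looser rule.

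The 2 day tags of the file names gave different counts. Replicates 1 and 2 carry the day 2 tag, with 47623 and 43527 listed peaks in Tcf-1 RV, against 22778 and 34601 in Empty RV. Replicates 3 and 4 carry the day 4 tag, with 36583 and 62639 in Tcf-1 RV, against 46819 and 58026 in Empty RV. The part that list length plays in these counts was not tested. Libraries tagged day 2 alone gave 11 gained member regions (Ccnd1 4, Mycl 3, Ccnd3 2, Myc 1 and Ccnd2 1) and 0 lost, with 9636 gained and 391 lost genome-wide. Libraries tagged day 4 alone gave 0 gained and 1 lost, at Mycl, with 1503 gained and 2467 lost genome-wide. The regions merged within each day tag were not counted, so the members cannot be set against a share of all regions here. A further Ccnd1 region, chr7:144895883-144896247, was held by all 4 Tcf-1 RV libraries, with 0.283, 0.264, 0.204 and 0.365 kb, and in Empty RV by replicate 4 alone, with 0.255 kb (Fisher exact p 0.143). It held no summit and lay in an H3K27me3 island.

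The number of peaks per window did not separate Tcf-1 RV from Empty RV at any member. It averaged 10.5 ± 1.73 in Tcf-1 RV and 8.5 ± 2.38 in Empty RV at Myc, and 6 ± 2.16 and 4 ± 2.45 at Ccnd1 (SD, n = 4 each). The exact two-sided permutation p was 0.457 at Myc, 0.286 at Ccnd1 and 0.714 to 0.914 at the other 4, with adjusted p 1 for all. Groups that did not overlap were seen at 0 of 6 members, against 0.462% of windows higher and 0.0355% lower in Tcf-1 RV. Ccnd3 had 13, 14, 13 and 15 peaks in Tcf-1 RV, against 8, 14, 14 and 14 in Empty RV.

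Myc carried the most regions that were open in fibroblasts and closed in thymocytes. Of the members' 23 regions held by all 8 NIH3T3 libraries, 9 had no peak in any DP library, against 56.4% of all such regions. Of the 9, Myc had 4, Mycn 2 and Ccnd1, Ccnd2 and Ccnd3 1 each. The 4 at Myc lay 37915 to 88694 bp above the gene, 3 of them within Pvt1. Those at Mycn lay 30732 and 40892 bp above the gene, and that at Ccnd2 67376 bp below it.

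Tcf-1 summits fell on these fibroblast regions. Of the 9, 7 held a summit, against 50.1% of all regions of that kind, and 0 of the 14 shared member regions did, against 23.998% of all shared regions. In all 7 of the 23 regions held by all 8 libraries had a summit, against 38.8% of such regions genome-wide, and 13 of all 70 did, against 27.03%. The widest was chr15:62048951-62049946 inside Pvt1, with 0.919, 0.887, 0.817 and 0.966 kb in Tcf-1 RV, against 0.330, 0.874, 0.884 and 0.987 kb in Empty RV, and a summit of score 63.8. These regions were open in Empty RV cells, which carry no Tcf-1 retrovirus.

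Peak widths in the 23 regions overlapped between the groups at every one. At 0 of 23 were all 4 Tcf-1 RV peaks wider than all 4 Empty RV peaks, against 2.52% of all such regions and 5.35% of those with a summit, and at 0 were they narrower, against 0.209%. The mean was wider in Tcf-1 RV at 18 of 23, with a median difference of 25.5 bp, against 31.75 bp over all regions of the kind. At Ccnd1, chr7:144963974-144964399 had 0.426, 0.350, 0.338 and 0.421 kb in Tcf-1 RV, against 0.245, 0.251, 0.328 and 0.364 kb in Empty RV (exact two-sided permutation p 0.114). Set against Empty RV libraries of the same replicate number, the peak was wider in Tcf-1 RV in all 4 pairs at this region, at chr15:62043632-62044157 near Myc and at chr17:47694578-47695389 near Ccnd3. These 3 of 23 compare with 12.6% of all such regions, 0 were narrower in all 4 pairs, against 2.01%, and the exact two-sided sign-flip p was 0.125 for each, the smallest that 4 pairs allow. At the Myc start the difference was -9.25 bp (exact permutation p 1).

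The pooled list placed 27 Tcf-1 summits in the 6 windows. Myc had 8, Ccnd2 5, Mycn, Mycl and Ccnd1 4 each and Ccnd3 2, against a median of 4 and a mean of 5.09 over all protein-coding windows. Myc had more than 75.5% of genes. The summits inside a member gene were the 2 at Ccnd3, with scores of 10.4 and 10.9, below the median of 17.01 of all 40562 summits. The score is the authors', on a scale that no source used here states.

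The 5 highest scores of the 27 lay in the 3 regions of 3 against 0 libraries and in 2 regions open in all 8. The summit in the Ccnd2 region of 3 against 0 libraries, chr6:127170641, scored 114.6, above 97.5% of all summits. The one in the Ccnd1 region, chr7:144988955, scored 65.9, and the one in the Mycl region, chr4:122914495, scored 34.6. The regions open in all 8 libraries carried summits of 70.4 at Ccnd2, 63.8, 28.98 and 20.1 at Myc, 28.98 at Mycn, 10.9 at Ccnd3 and 9.52 at Ccnd1. A summit at no peak, inside Pvt1, scored 31.6. Genome-wide, summits with 3 or 4 Tcf-1 RV and no Empty RV library also had a higher median score, 39.7, than those at no peak, 12.8.

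Most summits lay at no peak. Here a peak had to cover the summit base itself, so a summit can be at fewer libraries than held its merged region. The Ccnd3 summit of score 10.9 lay in a region open in all 8 libraries, but at its base 2 Tcf-1 RV and 0 Empty RV libraries had a peak. Of the 27, 14 (51.9%) were at no NIH3T3 peak, against 46.5% of all summits. A further 5 (18.5%) were at peaks of all 4 Empty RV libraries, against 15.8%, and 3 (11.1%) at peaks of 1 to 3 Empty RV libraries, against 19.7%. Those with no Empty RV peak comprised 3 (11.1%) at 3 or 4 Tcf-1 RV libraries, against 5.57%, and 2 (7.41%) at 1 or 2, against 12.5%. In DP thymocytes 2 summits (7.41%) were at regions open in both WT libraries, against 6.03%. They were the summit 1775 bp below Myc and the one in the lost region near the outer start of Ccnd3.

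**Figure D4:**
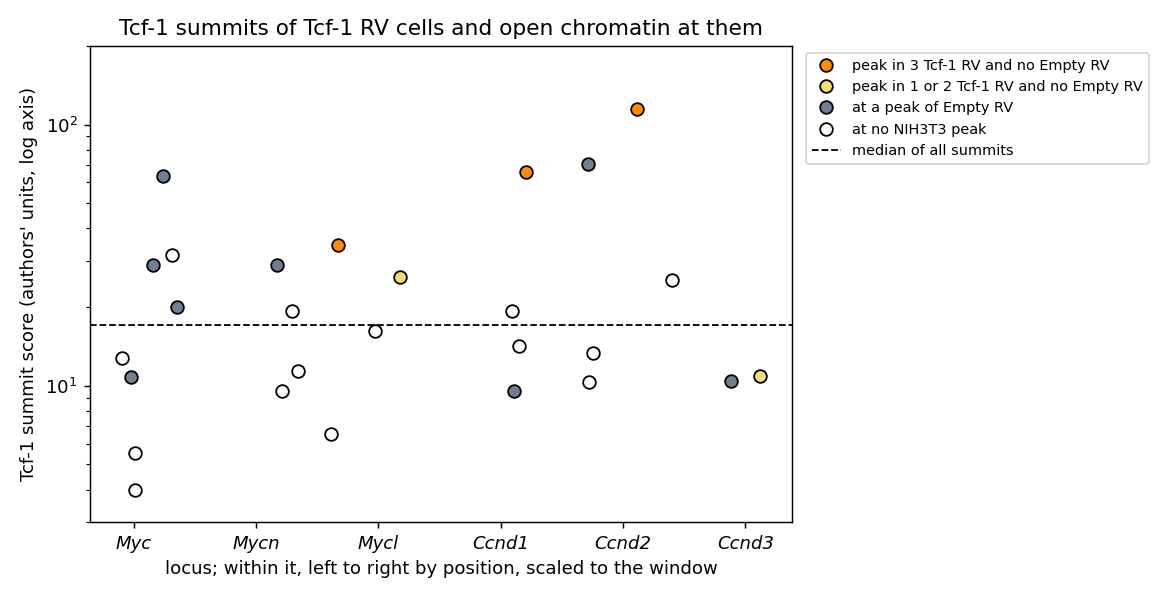
Score of each of the 27 Tcf-1 summits on a log axis, by locus and scaled position in the window, coloured by which NIH3T3 libraries had a peak at the summit base. The dashed line is the median of all summits, 17.01, and the 3 orange points at Mycl, Ccnd1 and Ccnd2 score 34.6, 65.9 and 114.6.

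H3K27me3, the mark of Polycomb repression, covered an end of Mycl and of Ccnd2 in fibroblasts. Islands in both replicates reached an end of 2 of 6 members, against 21.04% of all protein-coding genes, and lay over the body of 3, Mycl, Ccnd2 and Ccnd3, against 24.2%. Over Mycl they covered 94.02% of the gene. The island had 454 and 495 ChIP reads in the replicates, with 328 and 423 control reads, and a fold of 2.91 and 2.51 over control. The promoter peak of Mycl, open in all 12 libraries, lay inside the island of replicate 2 and just below that of replicate 1.

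At Ccnd2 the island began at the upper end of the gene, where its transcription starts, and covered 2.18% of the gene body. In replicate 1 it ran over chr6:127151401-127180800 with 1400 ChIP reads and 1110 control reads, a fold of 2.65. In replicate 2 it ended at 127169800 and the next began at 127170801, so the Tcf-1 summit at 127170641 lay in an island of replicate 1 alone. Islands of both replicates covered 68.6% of the Ccnd2 window, more than at 99.2% of genes, against a median of 8.64%.

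At Ccnd3 the islands covered 62.98% of the gene body and 42.4% of the window. The longest ran over chr17:47545401-47592000 in replicate 1, with 2166 ChIP reads and 1718 control reads, a fold of 2.65. In replicate 2 the same stretch held an island over chr17:47546001-47588800 and another that ended at 47592800. The region of the inner start, which was open in all 8 NIH3T3 libraries, begins at 47593180, above the end of both. One of the thymocyte-only regions kept in KO, at 47531350, lay in an island of both replicates. Window coverage was 36.1% at Mycl, 25.5% at Ccnd1, 13.1% at Mycn and 10.1% at Myc, and the last 3 had no island over the gene. At Myc and Mycn the stretches covered in both replicates all lay below the gene.

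H3K9me3, the mark of constitutive heterochromatin, reached an end of 0 of 6 members, against 11.4% of genes, and the body of 0, against 21.2%. It covered 13.3% of the Mycl window, 2.48% at Ccnd1, 0.976% at Myc and 0 at the other 3, against a median of 3.01%. One Mycl island, present in both replicates at chr4:122904801-122921600, held the region and the summit of the 3 against 0 pattern. Its fold over control was 2.05 in replicate 1 and 1.62 in replicate 2.

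**Figure D5:**
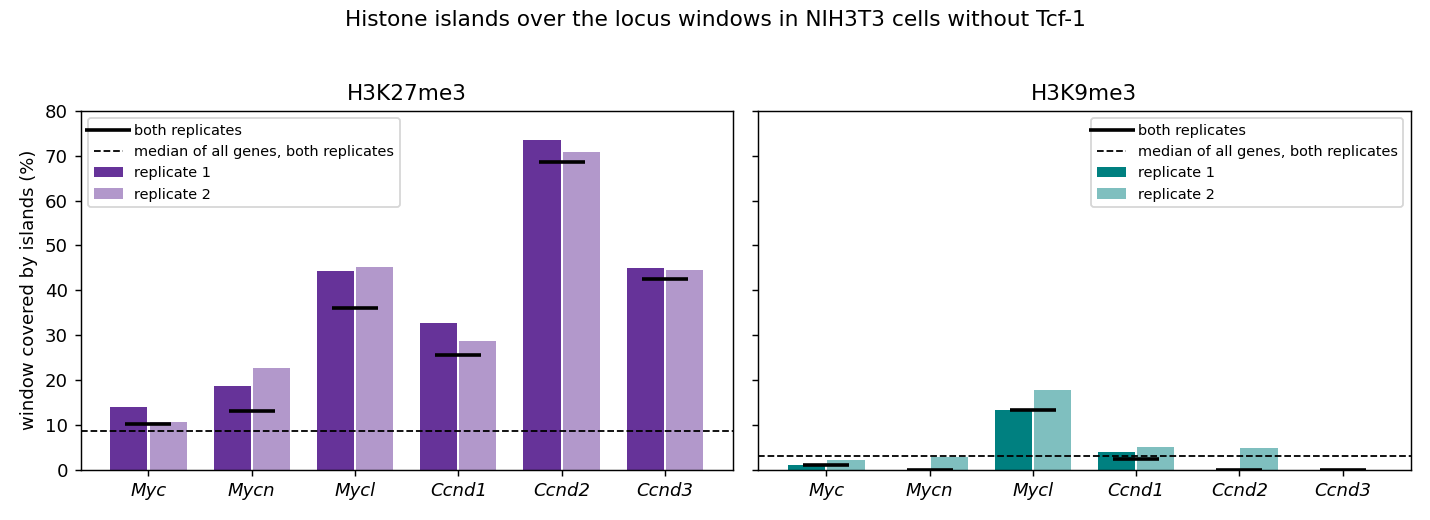
Percentage of each locus window covered by islands of H3K27me3 (left) and H3K9me3 (right) in NIH3T3 cells without Tcf-1. Bars are the 2 replicates, short lines the part covered in both and the dashed line the median of all protein-coding genes; Ccnd2 stands highest for H3K27me3 at 68.6% and Mycl for H3K9me3 at 13.3%.

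Partners of the members were followed through a pair of lists. Among 18 genes of the MYC network (Max and its other partners, Mxd and Mlx proteins, and cofactors), 15 lost at least 1 region in KO, and among 20 genes of the G1 to S cycle 19 did, against 76.3% of all windows. The median share of regions lost per gene was 26.8% and 38.8%, against 58.3% at the 6 members and 33.3% over all genes. The member median rests on 6 windows with 2 to 12 such regions each. Pooled, the members lost 16 of 34, or 47.1%, close to the 45.7% of all regions of both WT libraries. None had a gained region in KO. With Tcf-1 RV, gained regions lay at Ruvbl1, a chromatin ATPase of the MYC network, and at Cdk4, Cdk6, Cdc25a and E2f8 of the cycle list. These are 1 of 18 and 4 of 20 genes, against 8.43% of all windows. None of either list had a lost region in NIH3T3, against 0.736%. A region of 3 against 0 with a summit lay at 4 of 18 and 1 of 20 genes, against 14.1%, namely Mxd1, Mxd3, Mnt and Mlx of the MYC network and E2f6 of the cycle list. H3K27me3 reached an end of 5 of 18 and 0 of 20 genes, against 21.04% of all genes, and H3K9me3 of 2 and 1, against 11.4%.

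Genes whose peak numbers, per 10000 listed peaks, followed those of a member most closely over the 12 libraries were sought by Pearson r. Ccnd3 was most like Klhdc8b (0.998) and Cdk11b (0.997), and Ccnd2 most like Rpl34 (0.978) and Dglucy (0.948). Mycl was most like Gpr18 (0.976) and Gpr183 (0.974), both on chromosome 14, whose windows had 15.5 and 18 peaks on average in WT. Myc was most like Chrna1 (0.961) and Pdlim5 (0.947), Mycn like Zfp365 (0.906) and Echdc3 (0.880), and Ccnd1 like BC051665 (0.886) and Cstad (0.875). Each was compared with 16130 to 16147 genes, and all comparisons share the 12 peak lists and their lengths.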

How the data were processed

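ATAC-seq peak lists of 12 libraries, island lists of 4 histone libraries and 1 pooled summit list were used, of 321 samples. Per the submitters' processing notes, the tools were MACS2, Picard, STAR 2.5, Trim Galore, Bowtie2 2.2.9 and FastQC, and the builds mm10, GRCm38 and GRCh37. No source used here says which tool made which file. The deposited ATAC-seq files hold positions only. The deposited SICER islands carry read counts of ChIP and control, a ratio (fold) of ChIP over control, a p-value and its adjusted form, the last below 0.01 throughout. The deposited summits carry a score of unstated scale. Read depth of the ATAC-seq libraries is unknown.

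Peaks on unplaced sequences (293) were left out, and peaks sharing at least 1 bp were merged, within DP, within NIH3T3 and over all 12 libraries. Printed regions are those of the last merge. A mark covered a region where islands of both replicates did. The gene table (GRCm38.p6) has no strand. Shares over all genes or regions stand beside the members' counts in place of a test. Peak numbers and widths were compared by exact two-sided permutation tests and regions by Fisher's exact test, adjusted by Benjamini-Hochberg over all genes or regions (Python 3.11.15, scipy 1.17.1). The scripts were tested on simulated data. The smallest p is 0.333 for 2 against 2 and 0.0286 for 4 against 4 libraries.

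The labels do not say that replicates are separate animals or cultures, so a p measures the spread between these libraries, which may be technical. NIH3T3 libraries of the same number deviated together from their group means (correlations 0.187, 0.189, 0.125 and 0.260), so alternatives by replicate block treated the numbers as pairs, while the main tests are unpaired. Libraries of another number with the same day tag in the file name also did (0.0648 to 0.194), whereas those of unlike tags gave negative values. All 6 members are named; for likeness, the 2 genes of highest Pearson r among those with a mean of at least 3 peaks and another window. The members, lists and tests were chosen with earlier results of these data known. RNA-seq, single-cell ATAC-seq and other ChIP-seq libraries were not analysed here.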

Additional observations from a re-analysis of the deposited data

Results flagged for a closer look

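In 4 of 58 groups of 4 NIH3T3 libraries, 1 library was flagged as apart from the other 3 of its group. Chance alone would flag about 1 in 20 groups of continuous values, a rate that does not hold for whole peak numbers. Where 3 libraries tie, as in the Mycn and Ccnd3 windows below, the remaining library is flagged whatever its distance. The Mycn window had 4 peaks in Tcf-1 RV replicate 4, against 3 in each other Tcf-1 RV library. The Ccnd3 window had 8 peaks in Empty RV replicate 1, the shortest NIH3T3 list, against 14 in each other Empty RV library. The peak just above Mycn, in the region at 12942321, measured 439 bp in Tcf-1 RV replicate 4, against 362 to 368 bp in the others. The peak in the region at 47687745 of the Ccnd3 window, at an end of Tomm6 and Frs3, measured 711 bp in Empty RV replicate 4, against 405 to 445 bp in the others.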

How the results depend on the processing

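The 16 DP losses became 4 with windows of 10 kb and 10 with 50 kb, and 1 with lists limited to equal numbers of wide peaks, when 1 region, at Ccnd3, was gained. Leaving out 1 DP library gave 17 to 29 lost, the most without WT replicate 1. The numbers in the labels did not pair the DP libraries (correlation -0.0505), and the rule by replicate block gave the same 16 lost and 0 gained. The 0 gained NIH3T3 regions became 4 under the replicate block, 11 with day 2 libraries and 0 to 3 when 1 library was left out. The 0 lost became 1 with day 4 libraries. The 0 regions separated by peak width became 3 by replicate block, a setting added after seeing the data. The 6 loci whose DP peak numbers did not overlap, all lower in KO, became 2 with equal lists, Myc lower and Ccnd3 higher. Per 10000 listed peaks they became 4, 3 lower and Ccnd3 higher. The 0 in NIH3T3 became 3 with day 2 libraries, Myc, Mycl and Ccnd1, all higher in Tcf-1 RV. Both day 2 lists of Tcf-1 RV were longer than both of Empty RV. The share of all windows was not counted for that setting. The 27 summits became 13 with summits at or above the median score, 6 within 10 kb and 15 within 50 kb. The members with a mark at a gene end were within 1.5 times of the reported count under every alternative run. The cause of these changes was not tested beyond what each setting removes.

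The DP differences in peak number depended on list length. With equal lists Mycn was 0.5, Mycl 0.5 and Ccnd3 2 higher in KO, Ccnd1 and Ccnd2 were at 0 and Myc at -2, and per 10000 listed peaks Ccnd3 was 3.84 higher. The other settings, which leave the lists unequal, changed no sign. In NIH3T3 14 of 84 changed sign. Per 10000 listed peaks the difference was -0.150 at Mycl and -0.267 at Ccnd3, and with equal lists -0.5 at Myc, -0.25 at Mycl and -0.75 at Ccnd3. It was -0.25 at Mycl with 50 kb, and -2.5 at Mycl, -0.5 at Ccnd1 and -0.5 at Ccnd2 with day 4 libraries. Leaving out 1 library gave -0.833 to 2.5 at Mycl, -0.167 to 1.5 at Ccnd2 and -0.25 to 1.75 at Ccnd3. No member passed a test of peak number, which the DP design, the day 2 or day 4 libraries alone (smallest p 0.333) and the 4 pairs (0.125) cannot do.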
